A study of Mus musculus with 6 samples.

Results

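The immunosuppressive enzymes and the adenosine pathway are a set of 10 genes through which myeloid and leukemia cells can restrain lymphocytes. The set was chosen by name, with earlier results of these data known. It holds Ido1, Ido2, Arg1, Arg2, Nos2, Ptgs2, Entpd1, Nt5e, Adora2a and Il4i1. Each gene was read from the array probe set paired with its symbol alone, taking the brightest where a gene had more than 1. By that rule 8 of the 10 were measured, among 30748 named genes in all. Il4i1 lies on a probe set whose signal is shared with Nup62, so no value is given for it. Adora2a had no probe set paired with it in the annotation table used here and is not analysed here.

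These genes act by changing small molecules around the cell. IDO1, IDO2 and IL4I1 break down tryptophan or related amino acids, which starves T cells and yields ligands of the aryl hydrocarbon receptor. ARG1 and ARG2 consume arginine, and NOS2 turns it into nitric oxide. PTGS2, also called COX-2, starts the synthesis of prostaglandin E2, while CD39 (encoded by Entpd1) and CD73 (encoded by Nt5e) act in turn on extracellular ATP to give adenosine, which signals to lymphocytes through the receptor ADORA2A. In mouse marrow Arg1, Nos2 and Ptgs2 are known from suppressive myeloid cells and are typically induced by cytokines or microbial products.

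RNA was profiled on 6 arrays, 3 from Ppara+/+ and 3 from Ppara-/- mouse acute myeloid leukemia. In both groups the leukemia carried MLL-AF9, a fusion oncogene delivered with green fluorescent protein by an MSCV retrovirus, and the cells were sorted for that protein from the marrow of mice that had received a secondary transplant. The genotype refers to Ppara in the transplanted cells, which encodes a fatty acid-sensing nuclear receptor, and the Ppara mice had been backcrossed to a strain that no label names. The labels do not state the recipients' own genotype, the age of the mice, or whether replicates came from separate mice or separate primary leukemias, so p-values measure only the spread between these 6 samples. The single comparison asks which of these immune regulatory genes differ in leukemia cells without PPARA.

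Signals are on the log2 scale, where a difference of 1 is a doubling of the array signal. The table has no detection calls, so the 5222 probe sets whose identifiers mark them as negative controls served as background; what they match is not stated, and they had medians of 4.63 to 5.16 and 95th percentiles of 7.91 to 8.23 on the 6 arrays. Ppara+/+ replicate 1 and Ppara-/- replicate 2 stood apart with the highest control medians (5.16 and 4.99). Of the leukemia and myeloid markers 8 of 12, Itgam, Mpo, Elane and Meis1 among them, lay above the 95th percentile on all arrays, and Hoxa10 and Flt3 on none. Of the mature neutrophil markers 8 of 12 lay above it on all arrays. All 10 measured T cell, 8 NK cell, 8 B cell and 6 erythroid markers lay under it on every array. Over all 30748 genes 25929 were above it on no array, so a place under it does not show that such cells were absent. Ppara itself was at 5.08 ± 0.18 and 5.19 ± 0.12 (SD, n = 3 each, Ppara+/+ first; limma adjusted p = 0.997), near the control median, and the part of the gene its probes match is unknown, so it does not check the labels.

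No measured member passed the test of a difference between the genotypes. With limma's moderated test and Benjamini-Hochberg adjustment over all 30748 genes, 0 of 8 had an adjusted p under 0.05, against 0.117% of all genes, and 0 of 8 had an unadjusted p under 0.05, against 5.74% of all genes. In 0 of 8 did the 3 values of either genotype all lie above those of the other, against 8.74% of all genes. As the members were chosen with earlier results of these data known, these shares are not independent of those results. The differences, always Ppara-/- minus Ppara+/+, were positive in 3 members, negative in 4 and 0.00 in Ido2, with a median of -0.01 beside 0.02 over all genes. In 7 members the absolute difference was under 0.2, and Ptgs2 was the exception.

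**Figure D1:**
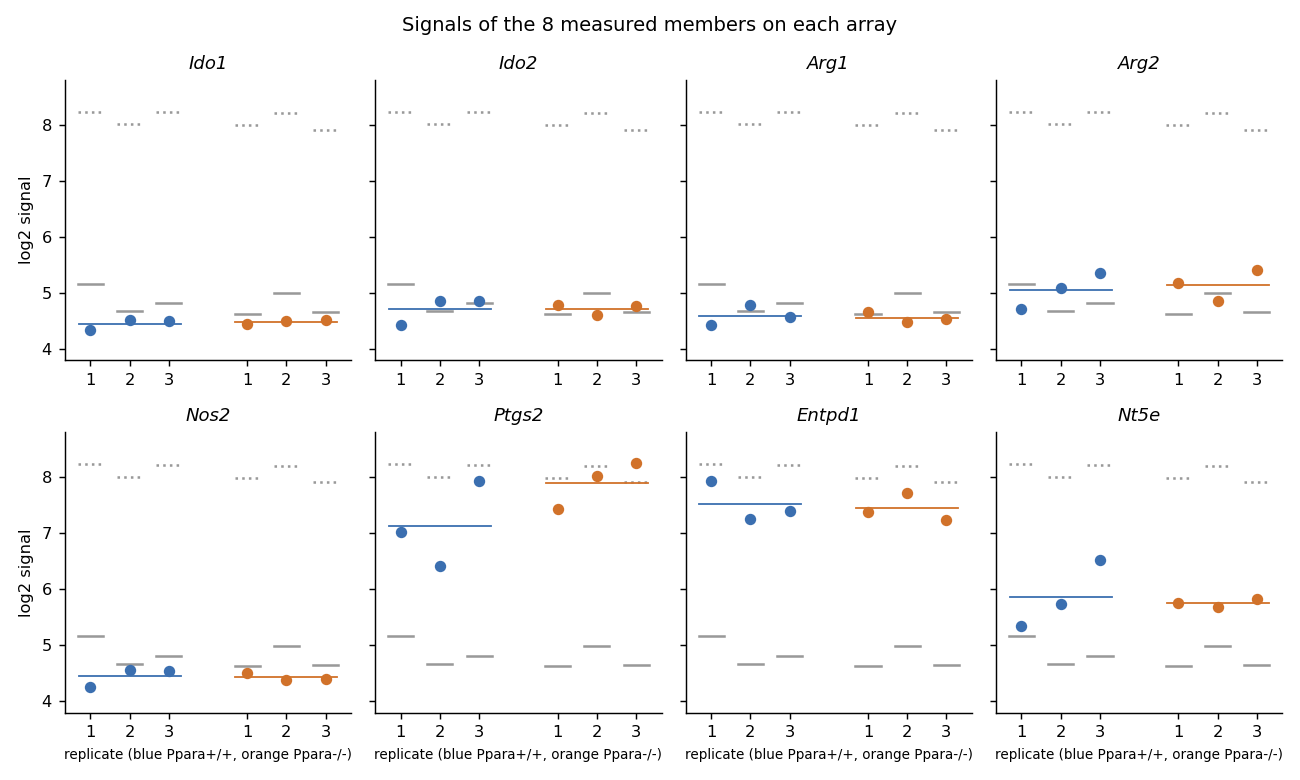
Log2 signal (y axis) of the 8 measured members on each array (x axis: replicate 1, 2 and 3 of each genotype, Ppara+/+ in blue and Ppara-/- in orange); coloured lines are group means, and on each array the solid grey mark is the median and the dotted grey mark the 95th percentile of the negative controls. Ido1, Ido2, Arg1, Arg2 and Nos2 lie near the control median in both genotypes, Nt5e lies between the marks, and Ptgs2 and Entpd1 lie above the median mark on every array, with 1 Ptgs2 value above the dotted mark.

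The tryptophan enzymes were at the level of the negative controls in both genotypes. Ido1 (probe set TC0800001896.mm.1), the interferon-inducible enzyme that opens the kynurenine pathway, gave 4.33, 4.51 and 4.50 in the Ppara+/+ samples and 4.44, 4.49 and 4.52 in the Ppara-/- samples. Each of these values lay under its own array's control median, and the groups overlapped. The difference was 0.04 (SE 0.10; 95% confidence interval -0.19 to 0.27; limma adjusted p = 0.997). Ido2 (probe set TC0800001895.mm.1), its less active relative, gave 4.43, 4.86 and 4.86 against 4.79, 4.60 and 4.76. Both means were 4.72, with SDs of 0.25 and 0.10 (n = 3), and the interval of the difference ran from -0.32 to 0.32. Between 33.45% and 54.23% of the negative controls lay under these signals on the 6 arrays, so a lower level in either genotype may not have been detectable.

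Both arginases and the inducible nitric oxide synthase were likewise dim. Arg1 (probe set TC1000001897.mm.1), the cytosolic arginase of alternatively activated macrophages and suppressive myeloid cells, gave 4.43, 4.78 and 4.56 in Ppara+/+ and 4.65, 4.48 and 4.54 in Ppara-/- samples. Every Ppara-/- value of Arg1 sat between the lowest and the highest Ppara+/+ value. The difference was -0.03 (SE 0.12; 95% confidence interval -0.31 to 0.24; limma adjusted p = 0.997). Arg2 (probe set TC1200000715.mm.1), the mitochondrial arginase, gave 4.72, 5.09 and 5.35 against 5.18, 4.85 and 5.40. The lowest Arg2 value was on Ppara+/+ replicate 1 and the highest on Ppara-/- replicate 3, with the others mixed between the genotypes, and the difference was 0.09 (SE 0.19; 95% confidence interval -0.34 to 0.52; limma adjusted p = 0.997). Nos2 (probe set TC1100001171.mm.1), which makes nitric oxide from arginine, gave 4.25, 4.56 and 4.55 against 4.51, 4.39 and 4.40. All 6 Nos2 values were under the control median of their arrays, and the difference was -0.02 (SE 0.12; 95% confidence interval -0.29 to 0.25; limma adjusted p = 0.997).

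Ptgs2 was the member with the largest difference, and it was also the most variable one. Ptgs2 (probe set TC0100001338.mm.1), an immediate early gene whose enzyme makes the precursor of prostaglandins, gave 7.02, 6.42 and 7.94 in the Ppara+/+ samples and 7.44, 8.02 and 8.25 in the Ppara-/- samples. The 2 highest values belonged to Ppara-/- and the 2 lowest to Ppara+/+ samples, but Ppara+/+ replicate 3 lay above Ppara-/- replicate 1, so the groups overlapped. The means were 7.13 ± 0.77 and 7.90 ± 0.42 (SD, n = 3), a signal ratio of 1.71. The log2 difference of 0.78 (SE 0.36; 95% confidence interval -0.04 to 1.59) was not past the threshold (limma adjusted p = 0.904, unadjusted p = 0.0587), and its p ranked 1994 among the 30748 genes. Its range over the 6 arrays, 1.83, was matched or passed by 0.50% of all genes. Without Ppara+/+ replicate 2 the difference was 0.42, without Ppara+/+ replicate 3 it was 1.18, and under array weights 0.32. The difference was positive in all 17 alternatives that gave it a value, with adjusted p from 0.427 to 1.0 (limma). Several of these, such as another prior, a replicate block or a threshold of 0.1, could not change the difference, so its sign there was fixed.

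Of the adenosine-producing pair, Entpd1 was the brighter against the controls and Nt5e the more uneven. Entpd1 (probe set TC1900000572.mm.1), which encodes CD39 and converts ATP and ADP to AMP, gave 7.93, 7.26 and 7.40 in Ppara+/+ and 7.38, 7.72 and 7.24 in Ppara-/- samples. Between 89.83% and 93.43% of the negative controls lay under it, so it stood high among them on every array without passing the 95th percentile on any. The 2 highest Entpd1 values were on the 2 arrays that also had the highest control medians, replicate 1 of Ppara+/+ and replicate 2 of Ppara-/-. The difference was -0.08 (SE 0.19; 95% confidence interval -0.52 to 0.36; limma adjusted p = 0.997), and it was 0.12 without Ppara+/+ replicate 1 and 0.08 with the control signal as a covariate.

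Nt5e (probe set TC0900001128.mm.1), which encodes CD73 and converts AMP to adenosine, gave 5.35, 5.73 and 6.53 in Ppara+/+ and 5.76, 5.68 and 5.82 in Ppara-/- samples. The Ppara-/- values lay within 0.14 of each other, inside the 1.18 spanned by the Ppara+/+ values, which held both the lowest and the highest signal. The difference was -0.12 (SE 0.26; 95% confidence interval -0.70 to 0.47; limma adjusted p = 0.997). Without Ppara+/+ replicate 3, the array with the highest Nt5e signal, it was 0.21 (limma adjusted p = 0.962). A range as wide as that of Nt5e was seen in 2.85% of all genes.

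**Figure D2:**
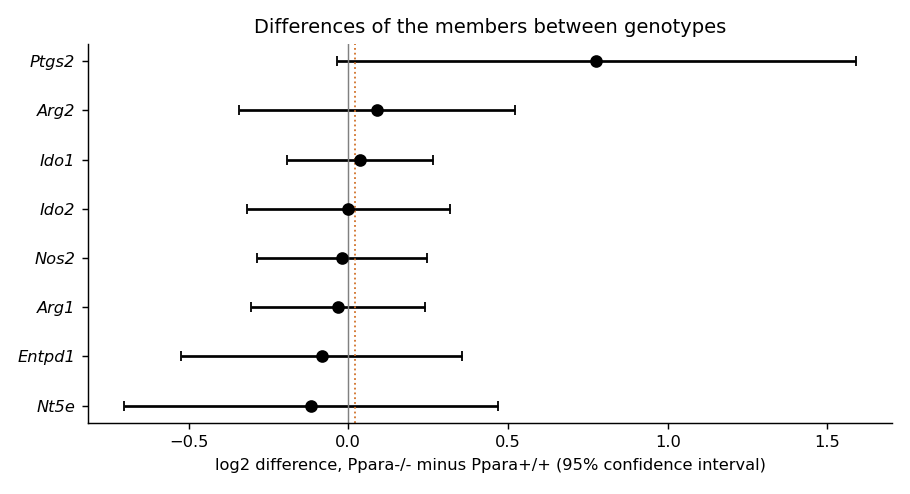
Log2 difference (x axis, Ppara-/- minus Ppara+/+, 3 samples in each group) of each measured member (y axis), with its 95% confidence interval from limma; the grey line marks 0 and the dotted orange line the median of all genes, 0.02. Each interval includes 0, and only Ptgs2, at 0.78, lies more than 0.2 from it.

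The members' intervals for a change in array signal differed in width. For Ido1 the interval allowed signal ratios from 0.88 to 1.20, for Nos2 from 0.82 to 1.19 and for Arg1 from 0.81 to 1.18. All 3 genes were at control-level signal, so these narrow intervals may describe background and need not limit a change in the transcript. For Entpd1 the allowed ratios were 0.70 to 1.28 and for Nt5e 0.62 to 1.38. The widest was that of Ptgs2, 0.98 to 3.01, which includes no difference as well as a change larger than the one measured.

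One array gave the lowest value of most members. Ppara+/+ replicate 1 gave the lowest value of 6 of the 8 members, Ido1, Ido2, Arg1, Arg2, Nos2 and Nt5e, and the highest of Entpd1. The same array gave the lowest value, ties included, in 42.83% of all named genes, and it had the highest control median. Ptgs2 was the 1 member whose lowest value was on Ppara+/+ replicate 2. The part of this array in the members' differences is shown by leaving it out: Ido1 went to -0.022 and Arg2 to -0.077, both past 0, Entpd1 went to 0.12, and Ptgs2 was at 0.72.

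**Figure D3:**
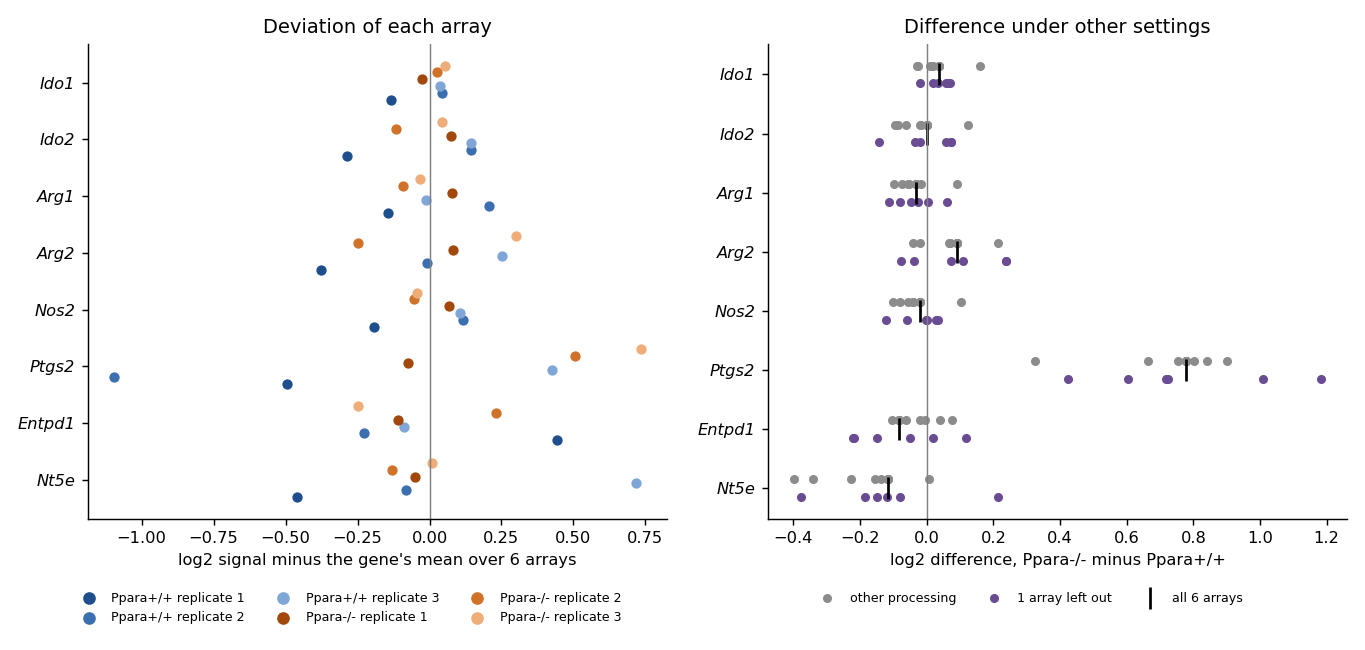
Left, each array's log2 signal of a member minus that member's mean over the 6 arrays (x axis; blue shades Ppara+/+, orange shades Ppara-/-). Right, the log2 difference (x axis) with all 6 arrays (black bar), with 1 array left out (purple) and under other processing (grey). Ppara+/+ replicate 1 is leftmost for 6 members, and all differences of Ptgs2 lie between 0.32 and 1.18, while those of the other members lie on both sides of 0.

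Around the members, 121 genes of 5 connected pathways were measured out of 135 listed. Limma called 0 of them at an adjusted p under 0.05, against 0.117% of all genes, a share too low for 0 calls to say much. An unadjusted p under 0.05 was found in 18 (14.9%, against 5.74% of all genes). Of these 7 had a positive and 11 a negative difference (3.14% and 2.6% of all genes). The groups did not overlap in 21 (17.4%, against 8.74% of all genes). The lists were chosen with earlier results of these data known, so their shares, here and below, are not independent of those results. The median difference over the 121 genes was 0.00, beside 0.02 over all genes.

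On the tryptophan and kynurenine side 20 of 20 listed genes were measured, with a median of 0.01. Limma called 0 (against 0.117% of all genes), and 1 had an unadjusted p under 0.05 (5.0%, against 5.74% of all genes). That gene was Ahr, the aryl hydrocarbon receptor to which kynurenine binds. It gave 5.73, 5.77 and 6.10 in Ppara+/+ and 6.50, 6.88 and 6.55 in Ppara-/- samples. Ahr lay above the control median on all 6 arrays and above the 95th percentile on none. All Ppara-/- values of Ahr lay above all Ppara+/+ values, with a difference of 0.78 (SE 0.15). That difference did not pass over all genes (limma adjusted p = 0.159, and 0.0657 to 0.490 over the alternatives). Tdo2, the liver-type dioxygenase that catalyses the same step as IDO, lay between 2.97 and 3.19 on the 6 arrays. Of the enzymes downstream, Kynu, which cleaves kynurenine, lay between 3.35 and 3.51, Kmo, which hydroxylates it, between 4.48 and 4.90, Qprt, which uses quinolinate, between 6.73 and 7.01 and Haao, which leads to quinolinate, between 7.38 and 8.17. These 5 were picked for their role with their values known. Cyp1a1, a classical AHR target, gave 3.66, 3.94 and 4.01 against 4.02, 4.03 and 4.06, with a difference of 0.17 (limma adjusted p = 0.997; 0.06 without Ppara+/+ replicate 1) under the control median of every array. The kynurenine aminotransferase Kyat1 (difference 0.15) and Slc7a5, which carries tryptophan and kynurenine into cells (difference -0.19), had limma adjusted p = 0.997 as well. Without Ppara+/+ replicate 1 the difference of Slc7a5 was -0.11, and without Ppara+/+ replicate 2 it was -0.33.

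In the arginine, nitric oxide and polyamine list 21 of 24 genes were measured. Limma called 0 (against 0.117% of all genes), and 0 had an unadjusted p under 0.05 (against 5.74% of all genes), with a median of 0.00. The arginine transporter Slc7a1 gave 8.31, 8.06 and 8.26 in Ppara+/+ and 7.90, 8.20 and 7.69 in Ppara-/- samples, a difference of -0.28 (SE 0.15; limma adjusted p = 0.981). Odc1, which turns the arginase product ornithine into putrescine, gave 10.11, 9.93 and 10.57 against 10.26, 10.73 and 10.58. Odc1 lay above the controls' 95th percentile on all 6 arrays and Slc7a1 on 4, and in both genes the genotypes overlapped. Azin1, which protects ornithine decarboxylase from its inhibitor, differed by -0.39 (limma adjusted p = 0.993), and Pts, an enzyme of the synthesis of the nitric oxide synthase cofactor tetrahydrobiopterin, by 0.21 (limma adjusted p = 0.997). Leaving out 1 array moved these differences: Slc7a1 was at -0.16 without Ppara-/- replicate 3, and Pts at 0.11 without Ppara-/- replicate 2. Odc1, with a difference of 0.32, was at 0.18 without Ppara+/+ replicate 2 and at 0.50 without Ppara+/+ replicate 3. Azin1 was at -0.25 without Ppara+/+ replicate 1 or Ppara-/- replicate 1, and at -0.62 without Ppara+/+ replicate 2.

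Prostaglandin and leukotriene genes held 24 measured of 25 listed, 0 called by limma (against 0.117% of all genes) and a median of -0.02. An unadjusted p under 0.05 was found in 4 (16.7%, against 5.74% of all genes). Tbxas1, the thromboxane synthase that uses the product of cyclooxygenases, gave 6.79, 6.04 and 6.26 in Ppara+/+ and 7.34, 7.31 and 7.25 in Ppara-/- samples. Tbxas1 lay above the controls' 95th percentile on no array. The groups were separate, with a difference of 0.94 (SE 0.18), the largest positive one in the 5 lists. It did not pass (limma adjusted p = 0.159); it did without Ppara+/+ replicate 1 (difference 1.15, adjusted p = 0.0199) and under array weights (adjusted p = 0.00436), and the range over the alternatives was 0.00436 to 0.609. Hpgd, which inactivates prostaglandin E2, gave 11.91, 11.18 and 11.19 against 10.99, 10.82 and 11.01. That was a difference of -0.49 (SE 0.19; limma adjusted p = 0.804), and the groups did not overlap. Without Ppara+/+ replicate 1, its highest value, the difference of Hpgd was -0.24, and under array weights it was -0.27. Pla2g6, a phospholipase, and Lta4h, which makes leukotriene B4, both differed by 0.35 (limma adjusted p = 0.682 and 0.868). Without Ppara-/- replicate 2 the difference of Lta4h was 0.20 and that of Pla2g6 0.47.

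The prostaglandin E2 synthases and receptors, named for their role with their values known, had smaller differences than Tbxas1. Ptges, the inducible synthase that works with PTGS2, gave 6.74, 6.96 and 7.05 against 6.82, 6.86 and 6.79. The cAMP-coupled receptors Ptger2 and Ptger4 differed by -0.14 and 0.36, and Ptger1 and Ptger3 by 0.00 and 0.17, each with limma adjusted p = 0.997. Ptger4 gave 6.11, 6.26 and 7.08 against 6.75, 6.59 and 7.20, with its highest Ppara+/+ value on replicate 3, as in Ptgs2 and Nt5e.

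Extracellular ATP and adenosine genes beside Entpd1 and Nt5e numbered 28 measured of 36 listed. Limma called 0 (against 0.117% of all genes), and the median difference was 0.02. An unadjusted p under 0.05 was found in 6 (21.4%, against 5.74% of all genes), 2 with a positive and 4 with a negative difference. The groups did not overlap in 9 (32.1%, against 8.74% of all genes). Ada, the deaminase that removes adenosine, gave 7.48, 7.44 and 7.58 in Ppara+/+ and 8.29, 8.42 and 7.86 in Ppara-/- samples. Every Ppara-/- value of Ada was above every Ppara+/+ value, with a difference of 0.69 (SE 0.15; limma adjusted p = 0.223, and 0.0478 to 0.802 over the alternatives, with array weights alone giving a value under 0.05). Slc29a3, a nucleoside transporter of lysosomes, gave 8.99, 8.76 and 9.10 against 8.65, 8.44 and 8.51, a difference of -0.42 (SE 0.12; limma adjusted p = 0.487). The groups did not overlap for this gene either.

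Receptors for nucleotides and adenosine had differences in both directions. P2rx1, an ATP-gated channel, gave 8.63, 7.97 and 8.31 against 7.71, 7.85 and 7.53, a difference of -0.61 (SE 0.17; limma adjusted p = 0.451). P2ry6, a UDP receptor, gave 6.44, 6.76 and 7.33 against 6.24, 5.80 and 6.17, a difference of -0.77 (SE 0.22; limma adjusted p = 0.469). In both genes all Ppara-/- values lay under all Ppara+/+ values. P2rx1 lay above the controls' 95th percentile on 2 arrays and P2ry6 on none. P2ry13, an ADP receptor named after its values were seen, gave 5.20, 5.51 and 5.85 against 5.75, 6.56 and 6.25, with overlapping groups and a difference of 0.67 (SE 0.23; limma adjusted p = 0.651). Adora3, the 1 adenosine receptor measured, which was named after its values were seen, gave 4.46, 4.59 and 4.66 against 4.40, 4.35 and 4.34, under the control median of each array (difference -0.21, limma adjusted p = 0.942). The other measured genes of the Entpd family in the list, 6 in all, had differences between -0.25 and 0.32.

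**Figure D4:**
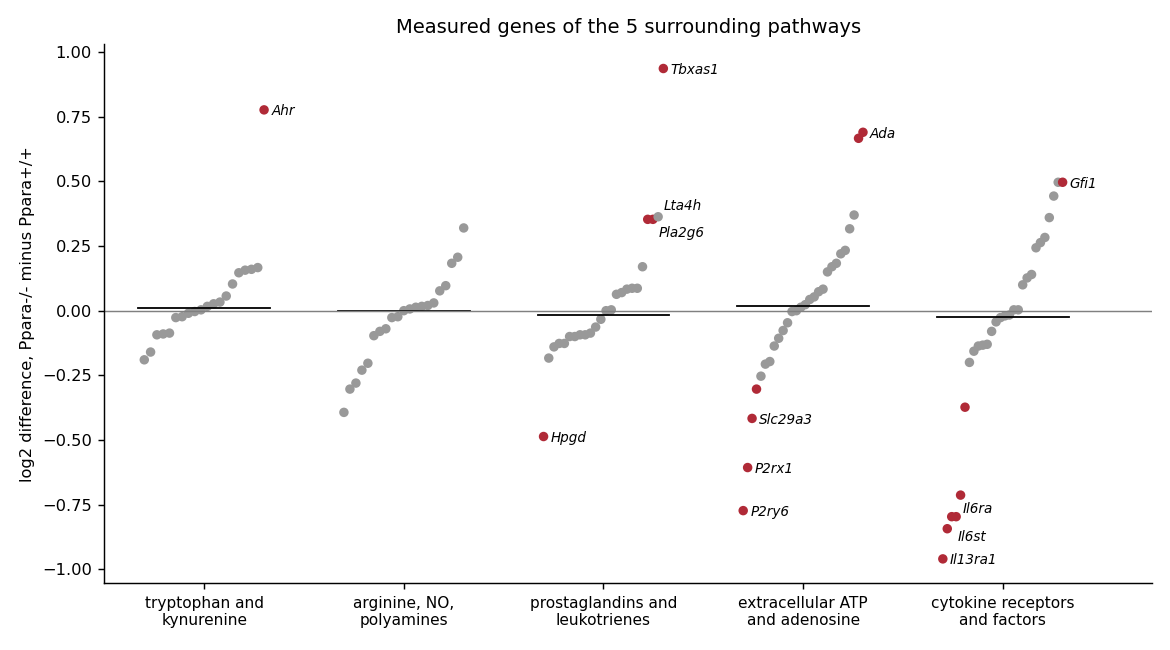
Log2 difference (y axis, Ppara-/- minus Ppara+/+) of the 121 measured pathway genes, sorted within each of the 5 lists (x axis); red points have an unadjusted p under 0.05 and black lines are list medians. The medians lie between -0.02 and 0.02, and 18 points are red, 11 of them under 0 and 6 of those among the cytokine receptors and factors.

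Cytokine receptors and transcription factors that act upstream of these enzymes held 28 measured of 30 listed. Limma called 0 (against 0.117% of all genes), and the median was -0.02. An unadjusted p under 0.05 was found in 7 (25.0%, against 5.74% of all genes). Of these 1 had a positive and 6 a negative difference (3.14% and 2.6% of all genes). Il13ra1, a receptor chain for interleukin 4 and interleukin 13, the classical inducers of Arg1, gave 7.91, 7.25 and 7.60 in Ppara+/+ and 6.59, 6.42 and 6.87 in Ppara-/- samples. Its groups were separate, and it lay above the controls' 95th percentile on no array. The difference was -0.96 (SE 0.18, limma adjusted p = 0.159, and 0.0253 to 0.759 over the alternatives). Il6ra gave 9.72, 9.31 and 9.79 against 8.75, 8.62 and 9.06, a difference of -0.80 (SE 0.16; limma adjusted p = 0.203). Il6st, the signalling chain that pairs with it, differed by -0.84 (SE 0.31; limma adjusted p = 0.736), with its lowest value, 6.04, on Ppara-/- replicate 2; without that array the difference was -0.45. The repressor Gfi1 was at 8.47, 8.43 and 8.36 against 8.88, 9.03 and 8.84 (difference 0.50, limma adjusted p = 0.198). Under array weights Il13ra1, Il6ra and Gfi1 passed (limma adjusted p = 0.0253, 0.041 and 0.0283).

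Of 19 measured monocyte and macrophage markers 13 had a negative difference (68.4%, against 41.8% of all genes) and 6 a positive one. Of these markers 4, Cd68, Ly6c2, Lyz2 and Cd14, lay above the controls' 95th percentile on all arrays and 11 on none, the complement genes C1qa, C1qb and C1qc and the mannose receptor Mrc1 among the latter. The log2 of their summed signal was 14.04 to 14.28 in Ppara+/+ and 13.75 to 13.95 in Ppara-/- samples. This sum rests mostly on the brightest markers, Ly6c2 and Lyz2, and does not stand for the whole list. Those differed by -0.13 and -0.21 (limma adjusted p = 0.997 and 0.979). Limma called 1 of the 19, against 0.117% of all genes. This was the adhesion molecule Vcam1, lower in Ppara-/- (limma adjusted p = 0.0374). Vcam1 is among the 11 markers above the 95th percentile on no array, at 7.29, 7.65 and 7.01 against 5.83, 6.17 and 5.79. An unadjusted p under 0.05 was found in 7 markers (36.8%, against 5.74% of all genes), all 7 with a negative difference. The groups did not overlap in 8 (42.1%, against 8.74% of all genes), with Ppara-/- lower in all 8. The part of these markers in the differences of Il13ra1, Il6ra, P2rx1, P2ry6 and Slc29a3 was not tested, and in bulk RNA fewer cells of a type and less RNA per cell cannot be told apart. Of the 9 markers of alternative activation, the state in which macrophages express Arg1, 7 lay under the 95th percentile on every array. Mgl2 lay above it on 1 array. Chil3 lay above it on all, at 12.31, 12.36 and 12.26 against 12.17, 12.62 and 12.09. Which cells gave the Chil3 signal was not tested, so it does not show alternative activation.

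**Figure D5:**
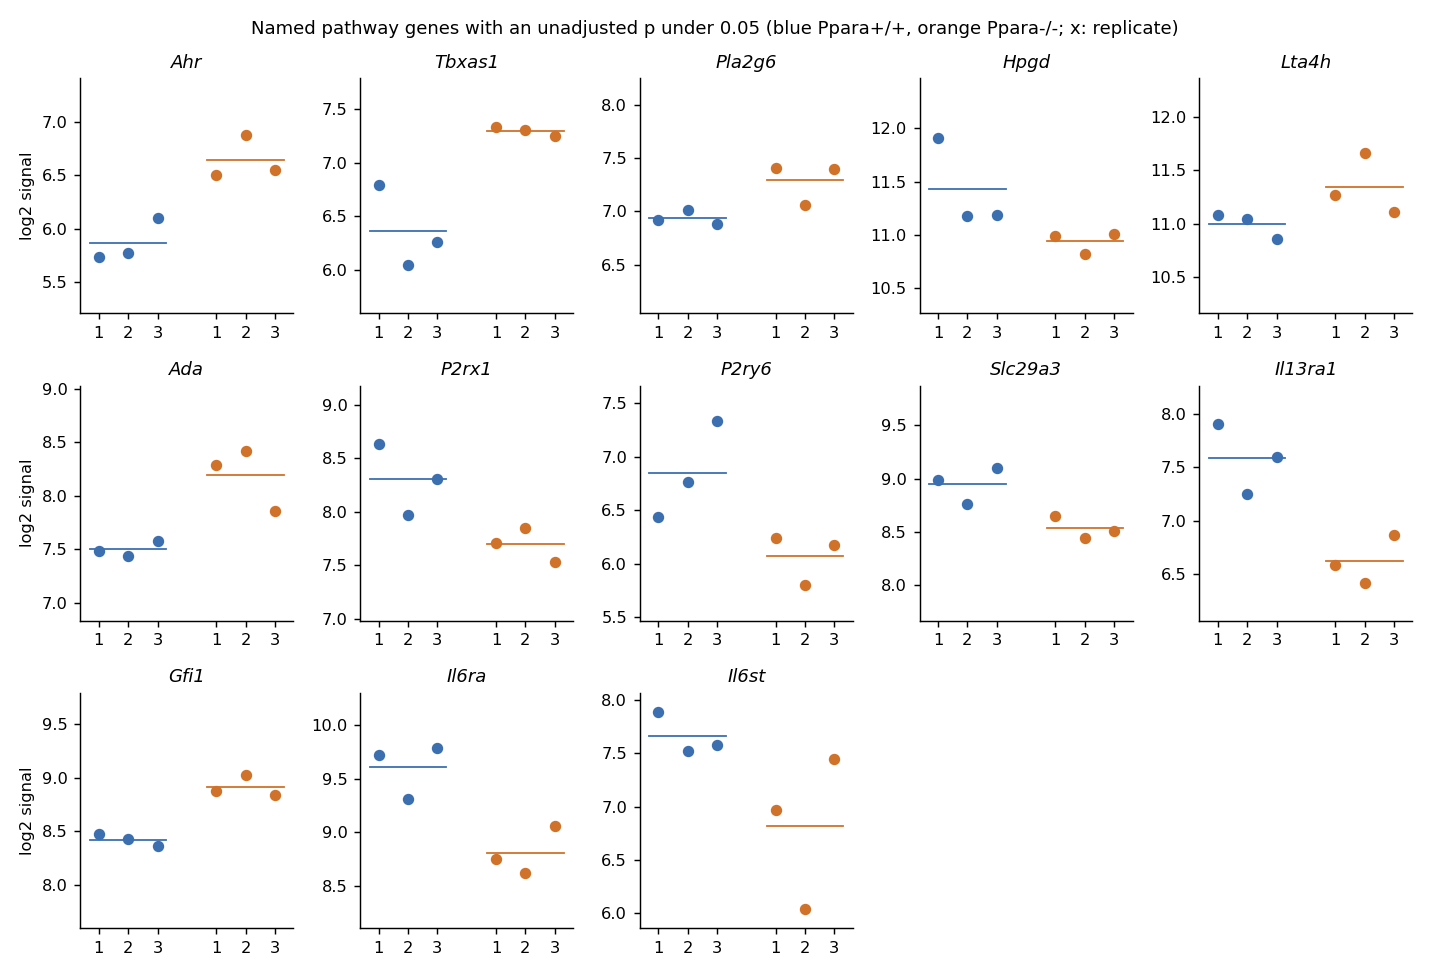
Log2 signal (y axis, the same span in each panel) on the 3 Ppara+/+ (blue) and 3 Ppara-/- (orange) arrays (x axis: replicate) of the 13 named pathway genes with an unadjusted p under 0.05; lines are group means. The genotypes are separate in each panel, but choosing genes by small p favours such separation. Of the list genes with an unadjusted p under 0.05 that are not shown, P2ry13, Ifngr2 and Il10ra had overlapping groups. None of the genes shown passed the adjusted test. Of the genes shown, Ahr, Tbxas1, Pla2g6, P2ry6, Il13ra1 and Il6st lay above the controls' 95th percentile on no array. Ada and P2rx1 lay above it on 2 arrays, and Hpgd, Lta4h, Slc29a3, Gfi1 and Il6ra on all 6.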

How the data were processed

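RNA from 3 Ppara+/+ and 3 Ppara-/- samples was measured on Affymetrix arrays, and groups and replicate numbers were read from the sample titles. The authors deposited log2 signals for each probe set; the submitters' processing notes name RMA and limma, without versions, and the genome build is not given in the sources used here. RMA equalises the arrays' distributions, so a shift shared by most genes would be lost. Of 72688 rows, 6732 were controls (5222 negative). A platform annotation paired 31221 probe sets with 1 symbol, older names of 1 gene ID counted as 1, and 1529 with several. The probe set with the highest mean stood for each of 30748 genes, with no filter. The form of the probe set names differs from the array model the design text gives, so the model is uncertain, and which exons the probes match is unknown.

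The test was limma 3.58.1 in R 4.3.3 (lmFit, eBayes, two-sided, no covariates, Benjamini-Hochberg over all genes, threshold 0.05), checked on simulated data. There it called 10.6% of log2 differences of 0.5, 69.85% of those of 1 and 96.36% of those of 2. Of unchanged genes it called 0.02%. The simulated noise was independent between genes, so it held no shift shared across an array. SEs and intervals are limma's. Alternatives were another prior, 3 normalizations, 2 filters, the mean of probe sets, array weights, a replicate block, a control covariate, arrays left out and a threshold of 0.1. Named genes were all measured members and up to 4 per pathway list, called ones first, then by smallest p; those named otherwise are marked. Members and lists were chosen with earlier results of these data known. Tables and plots used Python 3.11.15, pandas 2.3.3 and matplotlib 3.10.9.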

Additional observations from a re-analysis of the deposited data

How the results depend on the processing

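Limma called 0 members under all 17 alternatives that held a member, and no member passed the stricter of the filters on dim genes, which left none to test. Over all genes limma called 36, and 69 with a trended and robust prior, 12 with median centring, 23 with quantile normalization, 22 after subtraction of the control median, 1 among genes above the controls' 95th percentile, 277 with array weights, 12 with the replicate block, 74 at an adjusted p under 0.1, and 0 without both arrays of highest control signal (2949 at an unadjusted p under 0.05). With single arrays left out it was 6 to 36. Same-numbered samples did not deviate together (correlations of same-numbered deviations -0.328, -0.469 and 0.107, and no sample correlated best with its own number), and the block called 0 members. These correlations cannot settle whether the samples were paired by design. Ptgs2 kept a positive difference throughout (0.32 to 1.18), but the prior, the looser filter, the mean of probe sets, the block and the threshold could not change it. Small differences of other members changed sign. Subtracting the control median, which moved the median of all genes to 0.14, gave 0.09 for Arg1, 0.10 for Nos2, 0.04 for Entpd1 and 0.0067 for Nt5e. Array weights gave -0.029 for Ido1 and -0.020 for Arg2, the control covariate -0.041 for Arg2 and 0.077 for Entpd1, and leaving out both arrays of highest control signal -0.025 for Ido1. With 1 array left out the ranges were -0.022 to 0.068 for Ido1, -0.11 to 0.062 for Arg1, -0.077 to 0.24 for Arg2, -0.12 to 0.033 for Nos2, -0.22 to 0.12 for Entpd1 and -0.38 to 0.21 for Nt5e. The cause was not tested beyond the samples left out. Signal near the negative controls limits Ido1, Ido2, Arg1, Arg2 and Nos2.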
